A study of Mus musculus with 6 samples.

Results

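Genes of the bone morphogenetic protein (BMP) pathway were followed in RNA of uncultured brain oligodendrocytes, the glia that wrap axons in myelin. They were chosen by symbol: the ligand Bmp4, the receptors Bmpr1a and Bmpr2, the signal carriers Smad1 and Smad5, the inhibitor Smad7, and Id1, Id2, Id3 and Id4. All 10 were found among the 46983 features of the table and all 10 were among the 15153 tested. The 3 WT libraries came from control mice and the 3 Qk-KO libraries from Plp-CreERT2;QKLoxP/LoxP mice, in which a tamoxifen-inducible Cre expressed from the Plp promoter, active in the oligodendrocyte lineage, removes a floxed part of Qk, the gene of the RNA-binding protein quaking. All mice were FvB/C57BL6 hybrid, and both groups were given tamoxifen when 8 weeks old, 4 days before the cells were collected. The control mice are described no further, and nothing says that the libraries of a group came from different mice, so the p-values cover the spread among libraries, which may be technical.

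BMPs are secreted ligands that bring type I and type II receptor kinases together on the cell surface. The type I receptor then phosphorylates Smad1, Smad5 and Smad9, which enter the nucleus with Smad4 and switch on targets, among them the Id genes and the inhibitory Smads. Id proteins lack a DNA-binding region and hold basic helix-loop-helix (bHLH) factors away from DNA. In oligodendrocyte precursors, BMP signals and Id2 and Id4 are known for delaying differentiation, and the Id genes are also expressed in astrocytes and in cells of blood vessels.

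Values below are regularized log2 values, on which a difference of 1 is a 2-fold change of the regularized level. They are pulled toward the gene mean where reads are few, so a change can be smaller than the fold change of the counts. A change is the Qk-KO mean less the WT mean, given with limma's standard error (n = 3 libraries in each group). An adjusted p under 0.05 was called. Libraries differed in depth: WT replicates 1 to 3 and Qk-KO replicate 1 held about 23600000 to 32500000 reads, of which 59.8% to 64.8% were ribosomal RNA, whereas Qk-KO replicates 2 and 3 held about 78900000 and 71400000 reads with 2.23% and 1.88%. Qk-KO replicate 1, the only mutant library of the WT type, is therefore given alone against WT beside the results. That fit holds 1 mutant library, so its spread comes from the WT libraries alone. Its p-values and calls do not measure spread among mutant libraries. The whole-gene value of Qk was 15.41, 15.67 and 15.31 in WT replicates 1, 2 and 3 against 16.10, 15.62 and 15.30 in Qk-KO, and does not read the deleted part, so it checks nothing about the labels. The summed level of 10 oligodendrocyte markers was 505336 to 659341 in WT and 691862 to 774613 in Qk-KO, with 6 of 10 called higher, 0 lower and 0 at 0.

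On the deposited scaling all 4 Id genes fell in Qk-KO, although scaling to total signal, most of it ribosomal RNA in 4 libraries, put Id1 and Id3 at 0.52 and 0.24 while moving the median of all genes by 1.06. Smad7 rose, and the ligand, the receptors, Smad1 and Smad5 did not pass the test. On this regularized scale Id4 fell the most, to 30.3% of the WT level, followed by Id2 at 37.6%. Id3 stood at 56.7% and Id1 at 69.0%, while Smad7 rose 1.60-fold. The 4 of 10 genes called lower stand beside 14.8% of all tested features called lower, and the 1 called higher beside 13.8% called higher. In 5 of the 10 genes every Qk-KO library lay below every WT library, and in 1 above; over all tested features those shares were 21.8% and 24.5%. The median change of the 10 genes was -0.47, against 0.03 over all tested features. In bulk RNA, fewer cells of a type and less RNA per cell cannot be told apart, and this holds for each change below.

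**Figure D1:**
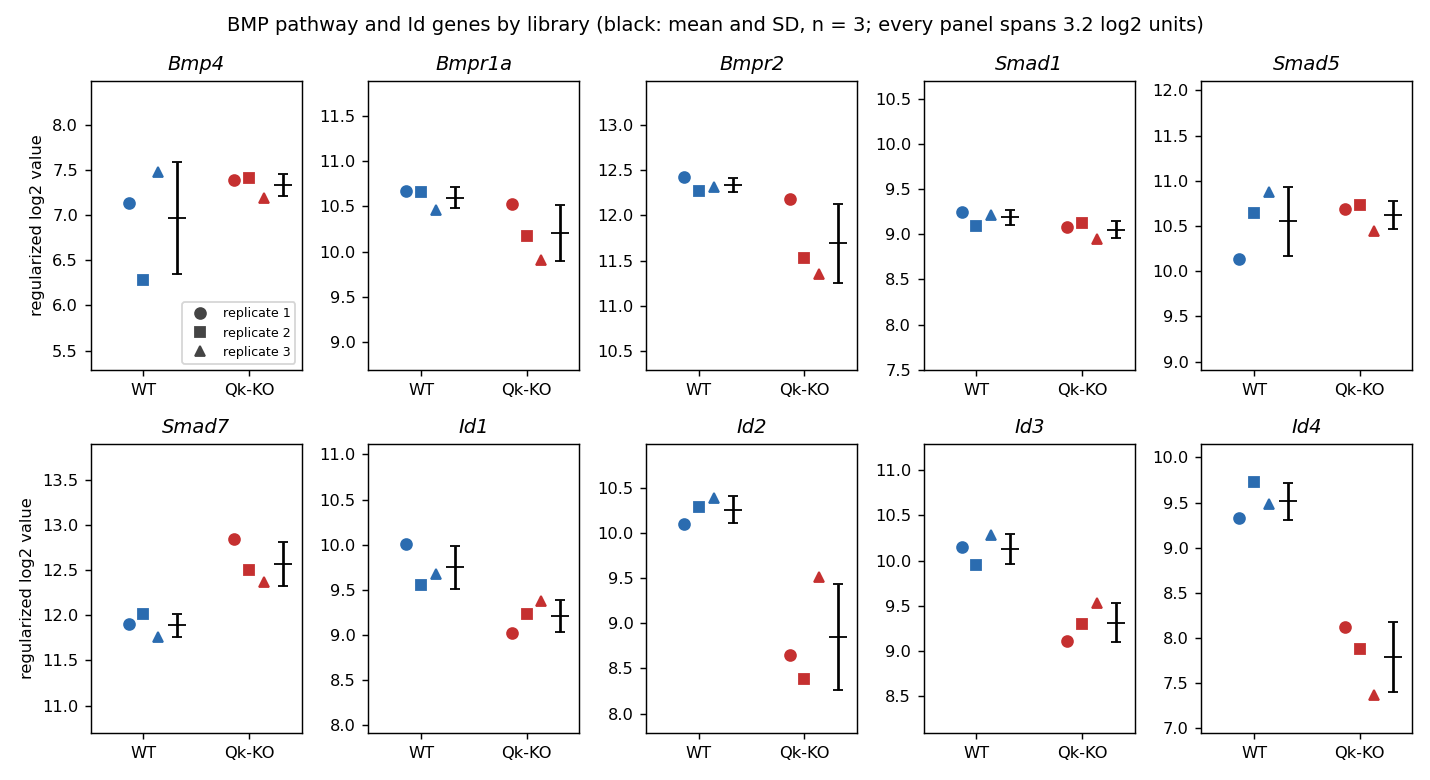
Regularized log2 value (vertical axis) of each of the 10 genes in the 3 WT and 3 Qk-KO libraries, 1 point per library, with the mean and SD of each group in black. Id1, Id2, Id3, Id4 and Bmpr2 lie lower on this scaling in all 3 Qk-KO libraries than in any WT library and Smad7 lies higher, while the groups overlap for the other 4 genes.

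Stretches before the RefSeq starts of Id2 and Id4, the genes with the deepest falls, are shown with that of Bmp4, the ligand, whose groups overlapped. They are RefSeq promoter sequences on GRCm38.p6, the same assembly as mm10, read 5' to 3' on the strand of the gene. The Bmp4 window is chr14:46390670-46390919 on the minus strand and the Id4 window chr13:48260866-48261115 on the plus strand, each covering the 250 bases before the start of the transcript. The Id2 stretch, chr12:25096254-25096342 on the minus strand, is the 89 bases from 250 to 162 before the start, since the remainder is annotated as UTR in GENCODE M21. This RefSeq start lies downstream of the 5' end that GENCODE gives Id2, so the stretch is inside the annotated gene and not upstream of it. Capitals mark GGCGCC, a GC-rich element known to be bound by Smads in BMP-responsive genes, and GTCT or its complement AGAC, the Smad-binding element.
Bmp4: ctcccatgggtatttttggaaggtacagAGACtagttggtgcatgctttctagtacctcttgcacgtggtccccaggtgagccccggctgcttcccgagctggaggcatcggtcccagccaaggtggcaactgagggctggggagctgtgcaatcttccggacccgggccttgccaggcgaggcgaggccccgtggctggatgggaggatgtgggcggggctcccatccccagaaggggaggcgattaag
Id2: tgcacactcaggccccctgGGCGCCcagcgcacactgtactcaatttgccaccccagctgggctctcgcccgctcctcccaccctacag
Id4: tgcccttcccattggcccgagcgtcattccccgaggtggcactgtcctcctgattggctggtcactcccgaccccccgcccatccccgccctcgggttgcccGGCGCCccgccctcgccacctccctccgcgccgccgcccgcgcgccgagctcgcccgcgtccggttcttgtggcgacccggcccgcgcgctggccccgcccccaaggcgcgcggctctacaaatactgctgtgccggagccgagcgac
The Id4 window held GGCGCC with its first base 148 before the start, the Id2 stretch held it at 231, and the Bmp4 window held none and had AGAC at 222. The part of the Id2 window that is not printed held AGAC at 23. Of the 8 members with an entry in the promoter table, with 10 windows in all, 5 held GGCGCC in a window (Bmpr1a, Bmpr2, Smad5, Id2 and Id4) and 4 held GTCT or AGAC. Like the Id2 stretch, the windows of Bmpr1a, Bmpr2 and Id3 and a window of Smad5 lay inside the gene that GENCODE gives. Of the GGCGCC matches, only that of Id4 lay upstream of the GENCODE gene. Over all 32851 windows of this length, searched on both strands, 9.59% held GGCGCC and 82.9% held GTCT or AGAC. The members' windows had a GC content of 60% to 78.8%, against a median of 52.4%, and among the 9178 windows with at least 60% GC the share with GGCGCC was 26.1%. Such a match is a run of letters, and binding was not measured.

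Bmp4 (chr14:46383520-46390669, minus strand, mm10) encodes a BMP ligand. Its log2 value was 7.13, 6.28 and 7.48 in WT replicates 1, 2 and 3 against 7.39, 7.41 and 7.19 in Qk-KO replicates 1, 2 and 3. WT replicate 2 was low, WT replicate 3 was the highest of all 6 libraries, and the groups overlapped. The change was 0.36 ± 0.29 with a limma adjusted p of 0.368, so a difference was not detectable against this spread. Without WT replicate 2 it was 0.02, and without WT replicate 3 it was 0.62.

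The type I receptor Bmpr1a (chr14:34410734-34503341, minus strand) was 10.67, 10.66 and 10.46 in WT against 10.53, 10.17 and 9.91 in Qk-KO replicates 1, 2 and 3. Qk-KO replicate 1 lay within the WT range, replicates 2 and 3 lay below it, and the groups overlapped. The change was -0.40 ± 0.17 (limma adjusted p = 0.109). Bmpr2 (chr1:59763400-59879014, plus strand), the type II receptor dedicated to BMP ligands, was 12.42, 12.27 and 12.31 in WT against 12.19, 11.53 and 11.35 in Qk-KO. All Qk-KO libraries lay below all WT libraries, but replicate 1 only narrowly. The change of -0.64 ± 0.21 had a limma adjusted p of 0.0501 and was not called. In Qk-KO replicate 1 alone the differences from WT were -0.07 for Bmpr1a and -0.15 for Bmpr2 (limma adjusted p of 0.796 and 0.519), while without that library they were -0.56 and -0.89 (limma adjusted p of 0.0143 and 0.00132). In the authors' deposited table the Bmpr2 log2 fold change was -0.68 ± 0.26 with an adjusted p of 0.0334.

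Smad1 and Smad5 carry the BMP signal from the receptor to the nucleus. Smad1 (chr8:79338395-79399518, minus strand) was 9.25, 9.10 and 9.22 in WT against 9.08, 9.13 and 8.95 in Qk-KO. Smad5 (chr13:56703010-56742377, plus strand) was 10.13, 10.65 and 10.88 in WT against 10.69, 10.73 and 10.44 in Qk-KO. The groups overlapped for both genes, and the wide WT spread of Smad5 came from the low WT replicate 1. The change of Smad1 was -0.13 ± 0.12 and that of Smad5 was 0.07 ± 0.19, with limma adjusted p of 0.416 and 0.810. Without WT replicate 1 the change of Smad5 was -0.14.

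Smad7 (chr18:75367529-75395935, plus strand), which blocks the receptors and recruits ubiquitin ligases to them, was the 1 gene of the 10 that rose. Its log2 value was 11.91, 12.01 and 11.76 in WT against 12.84, 12.50 and 12.36 in Qk-KO replicates 1, 2 and 3. Every Qk-KO library lay above every WT library, and replicate 1 was the highest. The change was 0.68 ± 0.15 (limma adjusted p = 0.0130). Qk-KO replicate 1 alone stood 0.95 above WT (limma adjusted p = 0.00591), where 6.17% of all features were called higher. The call was lost without WT replicate 3, where the change was 0.61 with an adjusted p of 0.0597. Smad7 is a target of both the BMP and the TGF-beta branch, and these values do not separate the branches.

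Id1 (chr2:152736251-152737410, plus strand) encodes an inhibitor of bHLH factors and is a direct target of BMP Smads. Its log2 value was 10.01, 9.55 and 9.68 in WT against 9.03, 9.24 and 9.37 in Qk-KO replicates 1, 2 and 3. The groups did not overlap, but Qk-KO replicate 3 and WT replicate 2 were close. Id1 fell by 0.54 ± 0.16 (limma adjusted p = 0.0367), the smallest fall of the 4. Its call was lost without WT replicate 1, WT replicate 3, Qk-KO replicate 1 or Qk-KO replicate 2 (limma adjusted p of 0.120, 0.0862, 0.0629 and 0.0978). It was kept only without WT replicate 2 or without Qk-KO replicate 3. The call was also lost in several other settings, among them Qk-KO replicate 1 alone, at -0.72.

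Id3 (chr4:136143497-136145755, plus strand), a close relative of Id1, was 10.15, 9.95 and 10.28 in WT against 9.11, 9.30 and 9.53 in Qk-KO. The highest Qk-KO library, replicate 3, was still below the lowest WT library. Id3 fell by 0.82 ± 0.15 (limma adjusted p = 0.00567), and stood at -1.02 in Qk-KO replicate 1 alone (limma adjusted p = 0.00812), where 9.37% of all features were called lower.

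Id2 (chr12:25093799-25097140, minus strand), an inhibitor of bHLH factors that is known to hold back oligodendrocyte differentiation, was 10.09, 10.29 and 10.39 in WT against 8.65, 8.38 and 9.51 in Qk-KO. The WT libraries lay close together, whereas Qk-KO replicate 3 was well above Qk-KO replicates 1 and 2, though still below every WT library. Id2 fell by 1.41 ± 0.27 (limma adjusted p = 0.00689), and the fall in Qk-KO replicate 1 alone was -1.61 (limma adjusted p = 0.00113).

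Id4 (chr13:48261228-48266026, plus strand), which binds the oligodendrocyte factors Olig1 and Olig2, had the largest fall of the 10 genes. Its log2 value was 9.33, 9.73 and 9.49 in WT against 8.12, 7.88 and 7.37 in Qk-KO replicates 1, 2 and 3. All Qk-KO libraries were far below WT, with replicate 3 the lowest. Id4 fell by 1.72 ± 0.21 (limma adjusted p = 0.000984) and stood at -1.39 in Qk-KO replicate 1 alone (limma adjusted p = 0.00426). An antisense gene, A330033J07Rik, overlaps an exon of Id4, and whether reads were counted by strand is not given in the sources used here; its mean normalized count was 24.3. Id2, Id3 and Id4 kept their direction and call when any 1 library was left out.

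**Figure D2:**
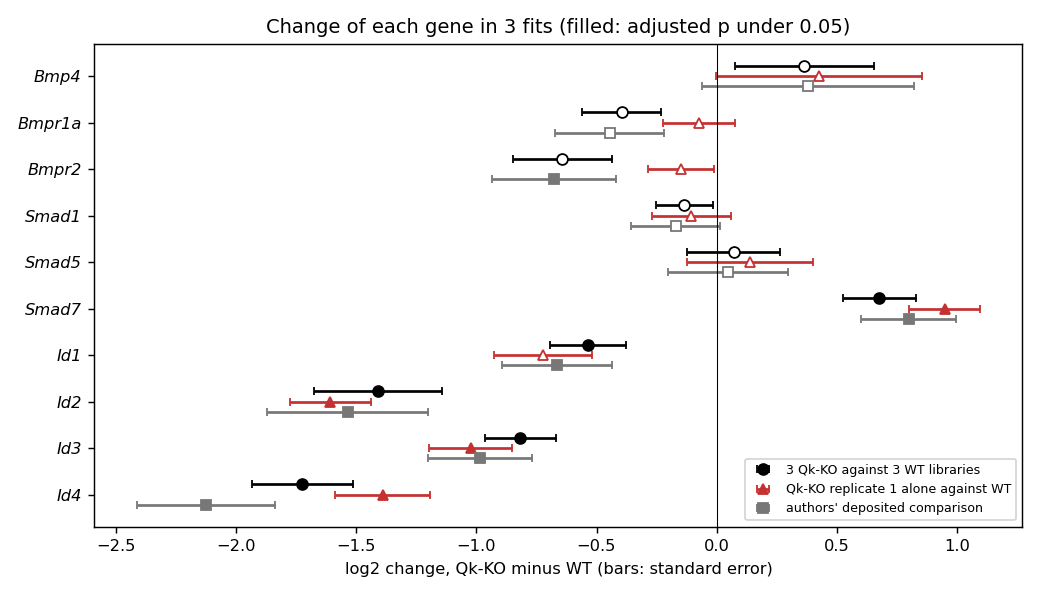
Log2 change between genotypes (Qk-KO minus WT, horizontal axis; bars, standard error) of the 10 genes from limma on all 6 libraries, from limma on Qk-KO replicate 1 alone against WT, and from the authors' deposited comparison. Filled symbols have an adjusted p under 0.05: Id2, Id3, Id4 and Smad7 are filled in all 3, Id1 is open in Qk-KO replicate 1 alone, and Bmpr2 is filled in the deposited comparison.

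The authors' deposited table called 1 of the 10 genes higher and 5 lower, where it called 16.4% of the same features higher and 16.3% lower. Its log2 fold changes for the Id genes were -0.66 ± 0.23 for Id1, -1.54 ± 0.34 for Id2, -0.98 ± 0.22 for Id3 and -2.13 ± 0.29 for Id4. Its value for Smad7 was 0.80 ± 0.20, with an adjusted p of 0.000441. These come from the same 6 libraries and are no separate evidence.

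Since the difference between a pair of genes within a library does not depend on how libraries were scaled, the 4 Id genes were also set against each other. Id1 minus Id4 was 0.68, -0.18 and 0.19 on the log2 scale in WT replicates 1, 2 and 3 against 0.90, 1.36 and 2.002 in Qk-KO. Id3 minus Id4 was 0.83, 0.22 and 0.79 in WT against 0.98, 1.42 and 2.16 in Qk-KO. In both pairs every Qk-KO library exceeded every WT library, so Id4 lay lower relative to Id1 and Id3 in the mutant libraries. The mean difference between groups was 1.19 and 0.91, each with an exact two-sided permutation p of 0.1, the smallest that 3 libraries against 3 allow, and 0.24 after Benjamini-Hochberg adjustment over the 6 pairs. Without Qk-KO replicate 3 the difference for Id3 minus Id4 was 0.59. The other 4 pairs overlapped between groups, with an exact permutation p of 0.2 for Id1 against Id2, Id1 against Id3 and Id2 against Id3, and of 1 for Id2 against Id4.

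Per kb of exon, and thus comparable between genes, Smad7 had the highest normalized level in WT, 842 ± 73.9 (SD), and Bmp4 the lowest, 58.9 ± 22.6. Between them came Id1 at 748 ± 126, Id3 at 628 ± 70.3, Id2 at 503 ± 51.4, Bmpr2 at 287 ± 15.9, Bmpr1a at 245 ± 19.6, Smad5 at 207 ± 51.9, Id4 at 191 ± 27.1 and Smad1 at 93.2 ± 5.03. In WT the ranges of Smad7 and Id1, Id1 and Id3, Bmpr1a and Smad5, and Smad5 and Id4 overlapped. These neighbours were measured in the same libraries, and whether they differed within libraries was not tested. In Qk-KO the normalized level per kb of Smad7 was 1357 ± 236, above Id1 at 514 ± 61.8 and Id3 at 357 ± 53.2. Id2, which ranged from 137 to 298, lay among Smad5, Bmpr2 and Bmpr1a, and Id4, at 58.9 ± 14.8, became the lowest of the 10, overlapping Bmp4 at 71.8 ± 5.78. The lengths are unions of all annotated exons, which understates the level of a gene whose long forms are little used.

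**Figure D3:**
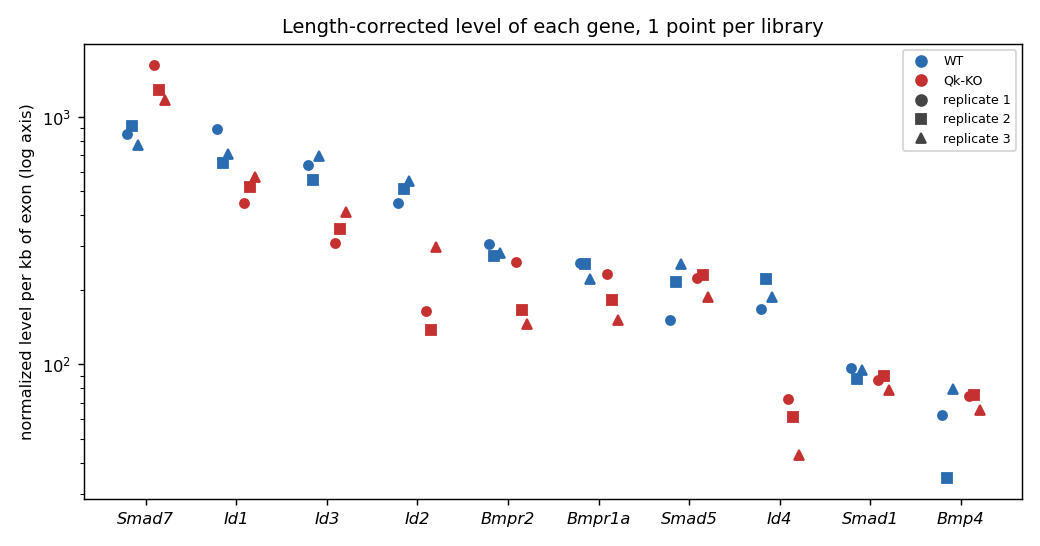
Normalized level per kb of exon (vertical axis, logarithmic) of the 10 genes, ordered by their WT mean, 1 point per library. Smad7 is the highest in both groups, and Id4 lies above Smad1 and Bmp4 in WT and at the bottom in Qk-KO.

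Marker genes of several other cell types also differed between the groups, where 14.8% of all tested features were called lower and 13.8% higher. Of 10 astrocyte markers, 9 were lower in Qk-KO and 0 higher, with a median change of -2.68 and a summed level of 129024 to 159360 in WT and 17650 to 27872 in Qk-KO; the exception was Gfap, with a change of 0.81 (limma adjusted p = 0.0526). All 10 endothelial markers were lower, with a median of -0.92 and sums of 24225 to 34355 in WT and 14095 to 15328 in Qk-KO, and 8 of 10 mural cell markers were lower, with a median of -0.81 and sums of 25705 to 30863 in WT and 14539 to 15758 in Qk-KO. Of the oligodendrocyte precursor markers 4 of 10 were lower, with sums of 33049 to 44960 in WT and 9036 to 20477 in Qk-KO. Called lower were Bcan, Ptprz1, Cspg5 and Sox6, and Bcan and Ptprz1 weigh most in the WT sums. The others were not called: Pdgfra (-0.28), Gpr17 (0.31), Neu4 (0.39), Vcan (0.05), C1ql1 (-0.14) and Cacng4 (-1.01). Of the microglia markers 5 of 10 were higher, with sums of 7766 to 11907 in WT and 19281 to 74584 in Qk-KO. The neuron and ependymal lists had medians near 0, at 0.03 and 0.0081. Of 10 neuron markers 2 were higher and 0 lower, with sums of 1866 to 2111 in WT and 2779 to 4239 in Qk-KO. Of 9 ependymal markers tested 0 were higher and 1 lower. No marker was at 0 in any of these lists, and the part of these cells in the Id and Smad7 changes was not tested.

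Library by library, Qk-KO replicate 1 was the furthest below WT and replicate 3 the nearest for Id1, at -0.72, -0.51 and -0.37 in replicates 1, 2 and 3, and for Id3, at -1.02, -0.83 and -0.60. The endothelial marker median had the same order, at -1.01, -0.85 and -0.75, as did the mural median at -0.95, -0.77 and -0.65. The microglia median, at 0.82, 1.03 and 2.77, and the ependymal median, at -0.05, 0.01 and 0.17, also increased from replicate 1 to replicate 3. Such an order rests on 3 libraries and was not tested. Id4, at -1.39, -1.64 and -2.14, was lowest in replicate 3, where the astrocyte median of -3.08, the precursor median of -1.96 and the neuron median of -0.40 were also lowest. The astrocyte median was -2.66 in replicate 1 and -2.37 in replicate 2, an order opposite to that of Id4 in these libraries. Id2, at -1.61, -1.87 and -0.75, was lowest in replicate 2. In Qk-KO replicate 1 the precursor markers were divided: their median stood 0.37 above WT, while 4 of 10 were called lower and 0 higher against WT, and their sum was 20477.

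**Figure D4:**
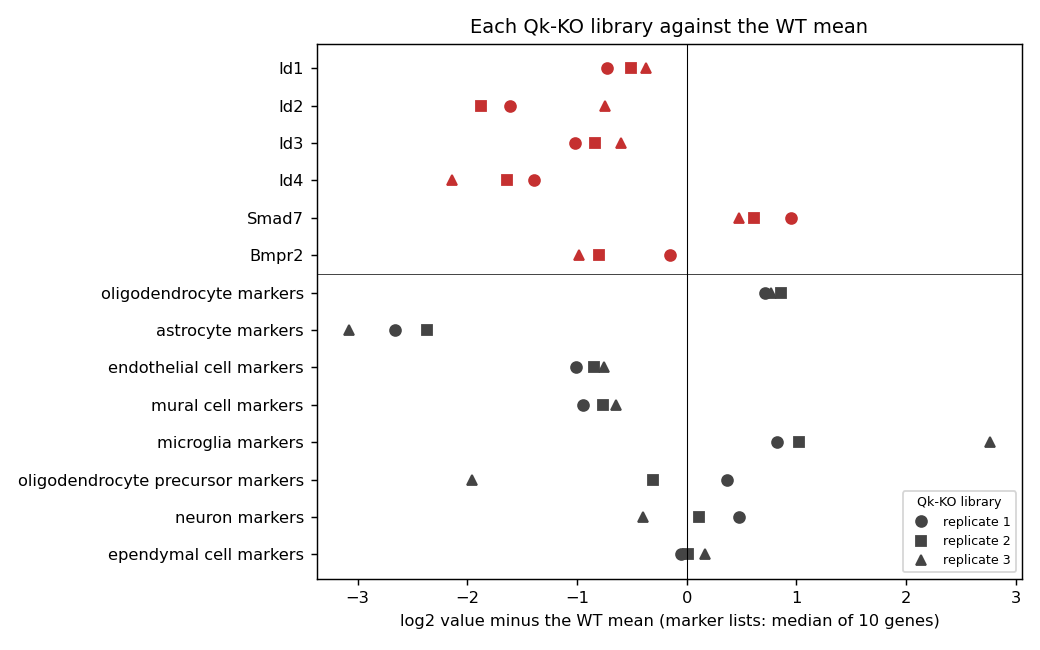
Difference from the WT mean on the log2 scale (horizontal axis) in each Qk-KO library for Id1 to Id4, Smad7 and Bmpr2, and below the line the median of each cell type's 10 markers. On the deposited scaling the Id genes and the astrocyte, endothelial and mural markers lie left of 0 in all 3 libraries, while precursor markers lie on both sides.

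A wider list of 64 genes of the pathway, 53 of them tested, was read by role. Of these, 5 were called higher and 17 lower, where 13.8% and 14.8% of all tested features were called. Scaled to total signal, 0 of them and 65 of all 15153 tested features were called lower. On the deposited scaling the median change was -0.34, against 0.03 over all features. In 26 genes every Qk-KO library lay below every WT library and in 7 above, where the shares over all features were 21.8% and 24.5%. Qk-KO replicate 1 alone gave 5 higher and 15 lower, where 6.17% and 9.37% of all features were called.

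Of the 12 other ligands 4 were tested and 2 fell, where 14.8% of all tested features were called lower. Bmp7 was 8.75, 8.65 and 9.15 on the log2 scale in WT and 7.74, 7.48 and 7.41 in Qk-KO, a fall of 1.31 ± 0.18 (limma adjusted p = 0.00154). Bmp6 fell by 0.92 ± 0.23 (limma adjusted p = 0.0203), a call lost without WT replicate 3 (adjusted p = 0.0786). Bmp2 had a change of 0.12 (limma adjusted p = 0.590), and Bmp8a and Bmp10 were listed at 0 in all libraries.

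Among 11 other receptors and co-receptors 4 fell and 0 rose, where 14.8% of all tested features were called lower and 13.8% higher. The type I receptor Bmpr1b was 9.42, 9.64 and 9.35 in WT against 7.14, 7.51 and 6.99 in Qk-KO replicates 1, 2 and 3. All Qk-KO libraries were far below WT, unlike the overlapping values of Bmpr1a. Bmpr1b fell by 2.26 ± 0.17 (limma adjusted p = 0.000138). Acvr2a, a type II receptor shared with activins, fell by 0.75 ± 0.13, the co-receptor Eng (endoglin, an endothelial protein) by 1.11 ± 0.17 and the co-receptor Tgfbr3 by 0.94 ± 0.14. Acvr2a was not called in Qk-KO replicate 1 alone (adjusted p = 0.0552). Neo1, the most abundant of those not called, had a change of 0.27 (limma adjusted p = 0.179).

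The secreted antagonists and modulators, which bind or process BMP ligands outside the cell, gave 1 rise and 4 falls among 11 tested. Of all tested features 13.8% were called higher and 14.8% lower. Chrdl1 fell by 1.63 ± 0.26, Fstl1 by 1.26 ± 0.19 and Crim1, a membrane-bound modulator, by 0.49 ± 0.11. Nog, which encodes noggin, was weak throughout, at 4.73, 4.45 and 4.98 in WT against 3.94, 4.04 and 4.16 in Qk-KO on the log2 scale, and fell by 0.68 ± 0.17 (limma adjusted p = 0.0192). Nog was not called in Qk-KO replicate 1 alone (adjusted p = 0.0888) or when WT replicate 1, WT replicate 3 or replicate 2 of Qk-KO was left out (adjusted p of 0.0588, 0.0557 and 0.0726), nor Crim1 without the first or the last of these (adjusted p of 0.0614 and 0.0524). The protease gene Bmp1, which encodes no BMP ligand despite its name, rose by 0.59 ± 0.10 (limma adjusted p = 0.00503). Twsg1 had a change of -0.35 (limma adjusted p = 0.0768).

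Inside the cell, Smad6, the other inhibitory Smad, did not share the direction of Smad7. It was 8.21, 7.82 and 8.14 in WT and 7.54 in each Qk-KO library on the log2 scale, and fell by 0.52 ± 0.15 (limma adjusted p = 0.0375). That call was lost in Qk-KO replicate 1 alone (adjusted p = 0.195) and without WT replicate 1, WT replicate 3, Qk-KO replicate 2 or Qk-KO replicate 3 (adjusted p of 0.123, 0.118, 0.115 and 0.0712). Smad4, the common partner, had a change of 0.14 (limma adjusted p = 0.523). Of the 5 other Smads 1 was called lower and 0 higher, near the shares of all tested features, 14.8% and 13.8%.

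Of 10 regulators of Smads, 2 rose and 2 fell, near the shares of all features called in each direction, 13.8% and 14.8%. Smurf1, a ubiquitin ligase for Smad1 and Smad5 that acts with Smad7 on receptors, was 10.65, 10.46 and 10.40 in WT against 11.17, 11.12 and 11.12 in Qk-KO. It rose by 0.63 ± 0.11 (limma adjusted p = 0.00474), with all Qk-KO libraries above all WT libraries. Zeb2, a Smad-binding repressor that induces Smad7 in oligodendrocytes, was 12.99, 13.25 and 12.90 in WT against 13.94, 13.61 and 13.46 in Qk-KO, and rose by 0.63 ± 0.17 (limma adjusted p = 0.0268). Zeb2 was not called when WT replicate 1, WT replicate 3 or replicate 2 of Qk-KO was left out (adjusted p of 0.0935, 0.104 and 0.0756). Zfp423, a zinc-finger partner of BMP Smads, fell by 1.67 ± 0.21, and the ubiquitin ligase Nedd4l fell by 0.77 ± 0.17 but was not called in Qk-KO replicate 1 alone (adjusted p = 0.161) or without any 1 of the same 3 libraries as Zeb2 (adjusted p of 0.0593, 0.0538 and 0.0578). Ski, a Smad corepressor, had a change of -0.03.

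Among other genes that BMP signals are known to raise, 4 of 7 tested fell and 1 rose, beside 14.8% and 13.8% of all tested features. Hes5, a repressor better known as a Notch target, was 8.52, 8.67 and 8.86 in WT against 6.57, 6.32 and 6.01 in Qk-KO, and fell by 2.38 ± 0.19 (limma adjusted p = 0.000151). The Notch targets Hey1 and Hes1 fell by 1.02 ± 0.15 and 1.06 ± 0.17. The homeobox genes Msx1 and Msx2 moved in opposite directions, at -0.81 ± 0.24 and 0.51 ± 0.13, with limma adjusted p of 0.0354 and 0.0193, and each call was lost when some single libraries were left out. Atoh8 had a change of -0.39 (limma adjusted p = 0.122).

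Of the 5 bHLH factors that Id proteins bind or counter, 1 was called higher and 0 lower, near the shares of all tested features, 13.8% and 14.8%. Olig2, the lineage factor of oligodendrocytes, was 11.80, 11.96 and 11.92 in WT against 12.76, 12.54 and 12.40 in Qk-KO. It rose by 0.67 ± 0.13 (limma adjusted p = 0.00710), where the 4 Id genes fell on the same scaling. Olig1 had a change of 0.41 ± 0.13 (limma adjusted p = 0.0541) and was not called.

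**Figure D5:**
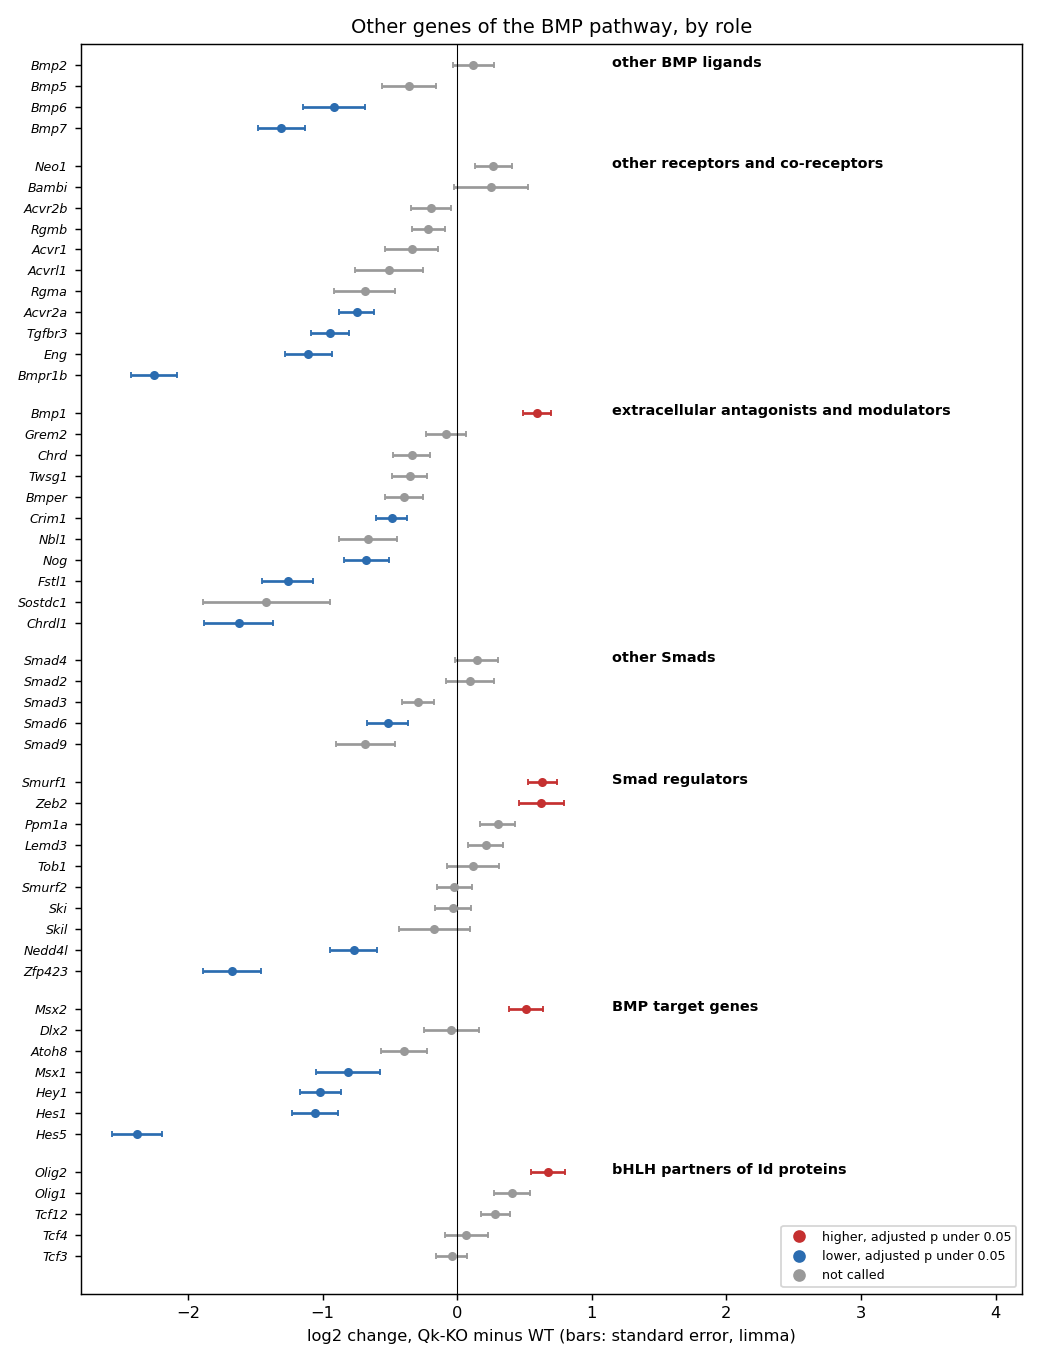
Log2 change, Qk-KO minus WT, with limma's standard error (horizontal axis) for the 53 tested genes of the wider list, grouped by role. The 17 genes called lower fall in every role but the bHLH factors, with Hes5 and Bmpr1b the furthest left, and the 5 called higher are Bmp1, Smurf1, Zeb2, Msx2 and Olig2.

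Genes with the pattern most like each Id gene over the 6 libraries were listed by Pearson's r among 9426 genes, as a description that rests on 6 points and mostly on the split between genotypes. For Id1 they were Marveld1 (0.997), Dysf (0.996) and Lamb2 (0.993), and for Id2 they were Nsmf (0.998), Stk40 (0.994) and Aldh2 (0.994). For Id3 they were Itpr1 (0.9998), Mfsd7c (0.997) and Bsg (0.996), and for Id4 they were Mmgt1, Gabbr2 and Plcb1, at 0.998 each. No gene appeared on more than 1 of these lists. An r above 0.9 was reached by 308 genes for Id1, 383 for Id2, 699 for Id3 and 978 for Id4.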

How the data were processed

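RNA of 3 WT and 3 Qk-KO libraries was sequenced. Per the submitters' processing notes, FastQC, TopHat2 2.0.14, featureCounts and DESeq2 were used with mm10; the sources used here do not state the annotation release, the strandedness or the read length. The deposited table gives log2 values per library, which behave as regularized log2 values: scaled for depth and pulled toward the gene mean where reads are few. It also holds the authors' mean normalized count (a signal over all 6 libraries), log2 fold change, Wald score, p-value and adjusted p-value, per the file headers.

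As the values are not counts, limma 3.58.1 (R 4.3.3) with a mean-variance trend and genotype as the only term was fitted, with no pseudocount, to the 15153 features whose mean normalized count was 20 or more, about 8.94 to 12.3 reads in the 4 shallower libraries. P-values were Benjamini-Hochberg adjusted over all of them. Depth was recovered from the steps of the authors' mean normalized counts; ribosomal RNA is Gm42418, Gm26917, mt-Rnr1 and mt-Rnr2. Levels per kb are back-transformed values over GENCODE M21 exon unions (GRCm38, the same assembly as mm10). The fit was also run on simulated data with independent noise in each library. Those data had no split in ribosomal RNA or depth, so the run does not bear on that split.

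The 10 genes, the pathway and marker lists and the naming rule were chosen with earlier results of these data known. Named are the 10 genes, each called gene of the wider list, the most abundant gene not called in each role, and 3 genes of like pattern per Id gene (mean normalized count from 200 up, unnamed gene models left out). A gene of the wider list is not reported here and was left out of its counts. Genes are printed with symbols as the table gives them. The alternatives were the filter, the scaling, a pseudocount of 8, quality weights, a replicate block, library type or number series as a term, Qk-KO replicate 1 alone, the authors' comparison, and leaving out each library; leaving out libraries for the Id ratios was added after seeing the data.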

Additional observations from a re-analysis of the deposited data

How the results depend on the processing

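Scaling by total signal, which is mostly ribosomal RNA in 4 libraries, moved the median over all genes by 1.06 on the log2 scale. It called 2382 of the 15153 tested features higher and 65 lower. It left 0 of the 10 genes and 0 of the wider list called lower, and turned Bmpr1a to 0.66, Bmpr2 to 0.42, Smad1 to 0.92, Id1 to 0.52, Id3 to 0.24, Bmp6 to 0.14, Acvr2a to 0.31, Tgfbr3 to 0.11, Nog to 0.38, Crim1 to 0.57, Smad6 to 0.54, Nedd4l to 0.29, Hey1 to 0.041, Hes1 to 0.0012, Msx1 to 0.245, Atoh8 to 0.66, Ski to 1.02 and Twsg1 to 0.70. Id2 stood at -0.35 and Id4 at -0.67 there, so all 4 Id genes lay below the shifted median. Total signal without ribosomal RNA gave 1 of the 10 higher and 4 lower, beside 1920 and 1890 of all 15153 features. There the Id1 call was lost (limma adjusted p = 0.0968), Bmpr2 was called (0.0368) and the Crim1 call was lost (0.0534). Ski, near 0 throughout, also turned to 0.0097 under that scaling, to 0.17 with library type as a term, to 0.17 in Qk-KO replicate 1 alone, to 0.0069 without WT replicate 1 and to 0.058 without Qk-KO replicate 2. Leaving out 1 library gave changes from -0.13 to 0.058 for Ski, and from -0.14, without WT replicate 1, to 0.23 for Smad5. Leaving out 1 library at a time gave 0 to 1 of the 10 genes higher and 3 to 5 lower, and 3 to 6 of the wider list higher and 12 to 21 lower. Over all 15153 tested features it gave 929 to 2840 higher and 1441 to 2793 lower. These were fewest without Qk-KO replicate 2 and most without Qk-KO replicate 1. Of the 10 genes 0 were higher without WT replicate 3, and 3 of the wider list without Qk-KO replicate 2. The group difference of Id2 minus Id4 ranged from -0.23, without Qk-KO replicate 3, to 0.59. A replicate block gave 1 of the 10 higher and 4 lower, 5 and 19 of the wider list, and 2091 and 2254 of all features. It ended the calls of Id1 (adjusted p = 0.0612) and Smad6 (0.0533) and called Bmpr2 (0.0303). No label says that same-numbered libraries were paired. Their deviations correlated at 0.10, 0.0046 and 0.08 for replicates 1, 2 and 3, and those of differently numbered libraries at -0.12 to 0.058. Not every library correlated best with its own number, and these values do not settle whether libraries were paired. Id1 was the least stable Id call, lost with no filter on low values (adjusted p = 0.0718) and with library type as a term (0.0532). Bmpr2 was called with a minimum of 50 (0.0468) and with quality weights (0.0133). The depth of the shallower libraries and the shrinkage limit weak genes such as Nog and Msx2 most. The authors' deposited log2 fold changes were -2.13 for Nog and 1.96 for Msx2, against -0.68 and 0.51 on the regularized values.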

Other observations

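The 4 Id genes were also set against marker genes within the same library, which removes the scaling. Id1 minus the mean of 10 endothelial markers was -1.17, -1.19 and -1.36 on the log2 scale in WT replicates 1, 2 and 3 against -0.89, -0.88 and -0.76 in Qk-KO, so every Qk-KO library lay above every WT library. Id3 minus the same mean was -0.86 ± 0.15 (SD, n = 3) in WT and -0.74 ± 0.12 in Qk-KO, with overlapping groups. For Id2 the values were -0.73 ± 0.33 in WT and -1.21 ± 0.55 in Qk-KO, also overlapping. Id4 minus the endothelial mean was -1.48 ± 0.43 in WT and -2.26 ± 0.49 in Qk-KO, and the groups overlapped here too. Against the mean of 10 astrocyte markers all 4 Id genes lay higher in every Qk-KO library than in any WT library, by 1.85 for Id1, 0.97 for Id2, 1.56 for Id3 and 0.66 for Id4. The direction against astrocyte markers followed from changes given above, a median of -2.68 for the list and -1.72 for Id4, the deepest Id fall. It is not particular to the Id genes. All these ratios were chosen after the values were seen and were not tested.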
